A study of Homo sapiens with 8 samples.

Results

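Cyclic AMP is made by adenylyl cyclases and acts largely through protein kinase A (PKA), and the genes of both enzymes were followed in human colon cancer cells that had received the coactivator CRTC1. The set held 10 genes of the 22458 named genes on the arrays. They were 2 PKA catalytic subunit genes (PRKACA and PRKACB), 4 PKA regulatory subunit genes (PRKAR1A, PRKAR1B, PRKAR2A and PRKAR2B) and 4 adenylyl cyclase genes (ADCY3, ADCY6, ADCY7 and ADCY9). They were chosen by symbol, each has 1 probe set, and all 10 were measured on all arrays. The cells were Caco-2 clone TC7, an epithelial line from a colonic tumour, grown in serum-containing medium. They were transfected overnight at subconfluence with 200 ng of a plasmid expressing CRTC1 (4 arrays), or with the matching empty vector, pBS (4 arrays). Transfection was transient and the share of cells that took up plasmid is not given, so each value averages over cells with and without it, and fewer responding cells cannot be told apart from a smaller change per cell. Whether the arrays of a group stem from separate cultures is not stated, and the p-values then reflect only the variation among these 4 and 4 samples, which could be technical.

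In an unstimulated cell PKA is a tetramer in which a dimer of regulatory subunits holds catalytic subunits inactive. Stimulatory G proteins, switched on by receptors for hormones, prostaglandins or adenosine, activate membrane adenylyl cyclases, and the cyclic AMP they make binds the regulatory subunits and frees the catalytic ones. Free PKA phosphorylates the transcription factor CREB, and it also blocks the kinases that keep CRTC coactivators out of the nucleus, so PKA lies upstream of CRTC1. In intestinal epithelium this pathway is best known for opening the chloride channel that drives fluid secretion.

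CRTC1 itself had log2 expression values of 12.52, 11.78, 11.70 and 11.46 on the CRTC1 arrays, against 5.48, 5.63, 6.30 and 6.19 on the empty vector arrays. The groups lay far apart, and CRTC1 was the 1 gene of 22458 past the threshold of an adjusted p of 0.05 in limma's moderated test (0.00445% of genes). Array medians ran from 4.11 to 4.15, and correlations between arrays across genes from 0.987 to 0.992. All 8 intestinal epithelial markers analysed lay at or above the median level of all genes, while 0 of 4 leukocyte, 0 of 4 endothelial and 2 of 5 fibroblast markers did. The array mean of the epithelial list ran from 9.03 to 9.18 with CRTC1 and from 9.14 to 9.24 with empty vector. Probe sets differ in how strongly they bind, so the levels below describe signal and do not rank the genes by amount of transcript.

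CREB binds the palindrome TGACGTCA, the cyclic AMP response element (CRE), and less tightly its core TGACG, which the palindrome holds on both strands. Both were searched on either strand of RefSeq promoter windows (GRCh38.p14, 250 bases before to 50 after each annotated start), which covered 8 of the 10 genes with 23 windows, ADCY6 and ADCY9 being the others. A CRE lay in windows of 1 gene, PRKAR1A, against 2.25% of all 27305 genes with a window, and a core in windows of 6 genes, against 28.4% of all genes. Genes with several annotated starts have several windows and so more chances of a match, and PRKAR1A has 5. The sequences are shown because they mark which of these genes carry the letters CREB is known to bind beside a start. A match is a description of the letters and not evidence of binding. The same CRE lay in another PRKAR1A window, chr17:68512129-68512428, where it begins at base 3 counted from that window's annotated start. The PRKAR1A window below runs along chr17:68512180-68512479 (plus strand). The CRE in capitals, at chr17:68512381-68512388, begins 49 bases before the annotated start of this window.
PRKAR1A: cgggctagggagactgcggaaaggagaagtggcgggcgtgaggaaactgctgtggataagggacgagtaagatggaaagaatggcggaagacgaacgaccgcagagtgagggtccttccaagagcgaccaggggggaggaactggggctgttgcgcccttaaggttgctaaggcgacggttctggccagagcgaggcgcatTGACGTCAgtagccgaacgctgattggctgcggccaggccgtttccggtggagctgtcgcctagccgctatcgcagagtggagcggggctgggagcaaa
The stretches of the other 5 genes hold their first core match in capitals, which reads CGTCA where the core is on the opposite strand. They lie at chr19:14117789-14117829 (minus strand) for PRKACA, which has a further match in that window, and at chr1:84077931-84077971 (plus) for PRKACB. The PRKAR1B stretch lies at chr7:713092-713125 (minus), that of PRKAR2A at chr3:48847856-48847896 (minus) and that of ADCY3 at chr2:24919811-24919835 (minus).
PRKACA: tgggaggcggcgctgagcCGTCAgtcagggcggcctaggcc
PRKACB: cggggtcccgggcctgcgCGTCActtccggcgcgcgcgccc
PRKAR1B: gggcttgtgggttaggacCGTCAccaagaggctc
PRKAR2A: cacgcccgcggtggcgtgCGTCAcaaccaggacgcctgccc
ADCY3: ccTGACGgcgggagatcgcgctccg
The windows of PRKAR2B and ADCY7 held neither motif. Of the 16038 measured genes with a window, 478 had a CRE there. Of those with a CRE, 27 (5.65%) reached an unadjusted p under 0.05 in the CRTC1 comparison, 13 higher and 14 lower. The share was 5.82% among measured genes whose windows held no CRE.

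The comparison asked whether raising CRTC1 altered the transcripts of the enzymes that lie upstream of it. No change was detected in any of the 10 genes. With limma 0 of 10 passed the adjusted threshold, and 0 of 10 reached an unadjusted p under 0.05, where 5.94% of all genes did. Of the 10, 5 lay higher and 5 lower with CRTC1, and 48.6% of all genes lay higher. Across the 10 the log2 changes ran from -0.22 for ADCY7 to 0.14 for PRKAR2B, with a median of -0.0087 against -0.0050 over all genes. The 2 groups of arrays overlapped in all 10, whereas they did not overlap in 3.74% of all genes. Each gene's own 95% interval from limma held 0 and lay within 1.5-fold in either direction, a mark used only for reading. The pooled SD of ADCY7 within groups was 0.229, against 0.177 for the median gene. Limma's moderation pulls so wide a spread towards that of other genes, and the ADCY7 interval is narrower than its own arrays would give. Across the 10 genes the lowest bound was a ratio of 0.684, for ADCY7, and the highest 1.35, for PRKAR2B. These are intervals for single genes, not for all 10 at once. PRKACB and PRKAR2B had dim signals, at the 10th and 16.1 percentiles of all named genes. The deposited values hold no detection call to tell such signals from background, so their intervals do not bound a change of transcript.

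**Figure D1:**
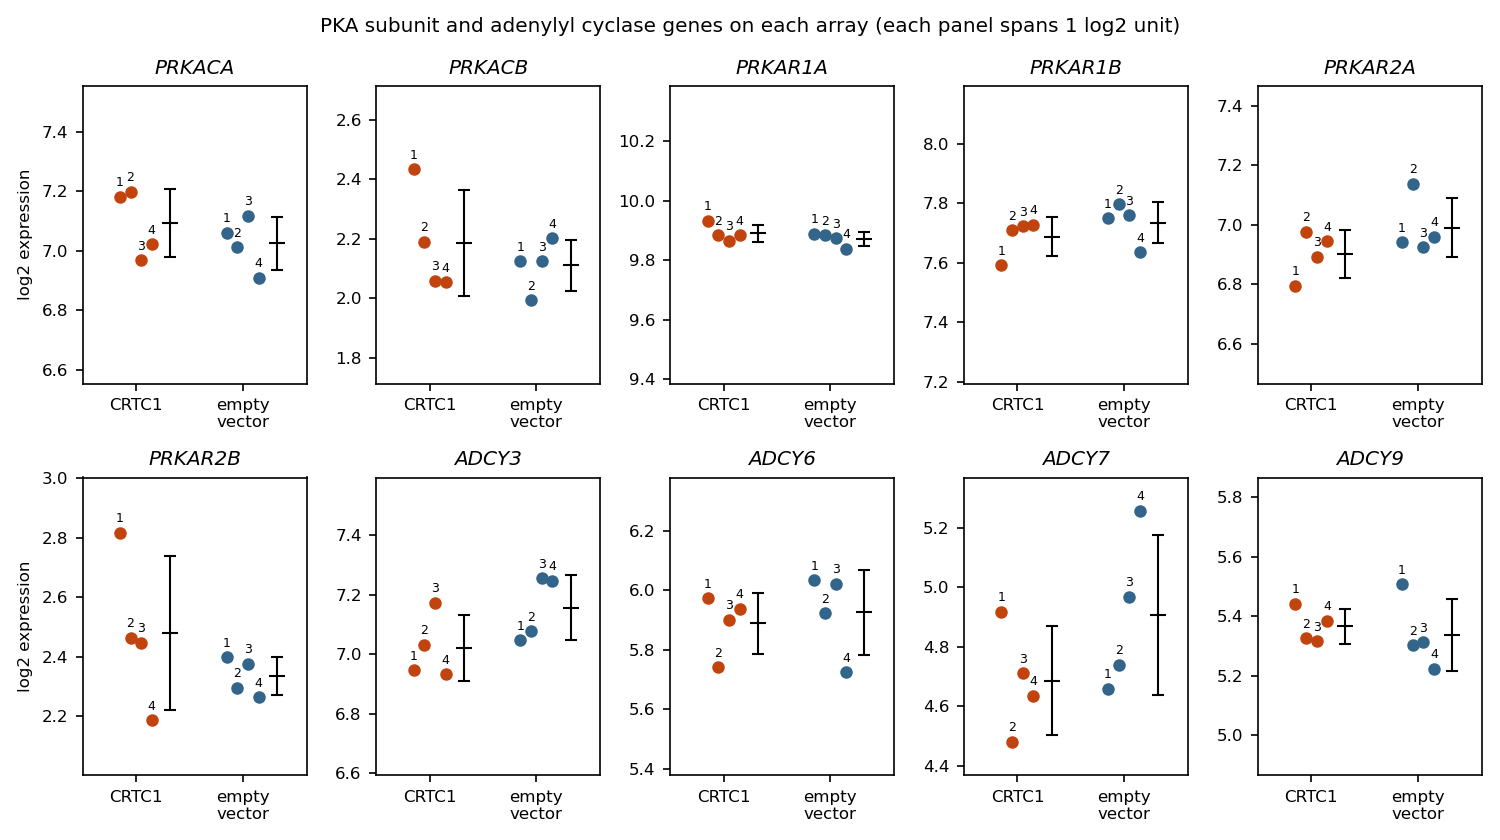
Log2 expression (vertical axes, each panel spanning 1 log2 unit) of the 10 genes on the 4 CRTC1 arrays (left, red) and the 4 empty vector arrays (right, blue), with the replicate number of the titles above each point and the mean ± SD beside it. The groups overlap in every panel, PRKAR1A has the tightest points, and ADCY7 spreads from 4.48 on CRTC1 replicate 2 to 5.26 on empty vector replicate 4.

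The catalytic subunits carry the kinase activity. PRKACA, which encodes the catalytic subunit C-alpha found in most tissues, had log2 values of 7.18, 7.20, 6.97 and 7.02 with CRTC1, against 7.06, 7.01, 7.12 and 6.91 with empty vector. CRTC1 replicates 1 and 2 lay above every control array, and the other CRTC1 arrays lay among them. The means were 7.09 ± 0.114 on CRTC1 arrays and 7.03 ± 0.0882 on control arrays (SD, n = 4 each), a log2 change of 0.068 with a standard error of 0.088 (adjusted p = 0.923, exact two-sided permutation p = 0.400). As a ratio this was 1.05, with an interval of 0.913 to 1.20.

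PRKACB encodes the closely related C-beta, and its values were 2.44, 2.19, 2.06 and 2.05 with CRTC1, against 2.12, 1.99, 2.12 and 2.20 with empty vector. CRTC1 replicate 1 stood above the other 7 arrays, which overlapped. It differed by 0.074 on the log2 scale (SE 0.10, adjusted p = 0.925), a difference that turned to -0.0093 without CRTC1 replicate 1. Its signal lay at the 10th percentile of all named genes, where the table has no detection call to tell it from background, so the near-zero change says little about C-beta transcript.

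Among the regulatory subunits, type I and type II proteins differ in where they place the enzyme in the cell. PRKAR1A encodes RI-alpha, the widely expressed type I subunit whose loss of function in people frees PKA activity and causes Carney complex. Its values were 9.93, 9.88, 9.87 and 9.89 with CRTC1, against 9.89, 9.89, 9.87 and 9.84 with empty vector. All 8 arrays lay within 0.0931 of each other. The means of 9.89 ± 0.0286 on CRTC1 arrays and 9.87 ± 0.0227 on control arrays (SD, n = 4 each) gave a log2 change of 0.020 (adjusted p = 0.975), a ratio of 1.01 with an interval of 0.912 to 1.13. This is the gene with the CRE shown above.

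PRKAR1A had the smallest spread of the 10 genes between arrays of the same group. Its pooled SD was 0.0258 on the log2 scale, where the median gene had 0.177, and only 27 of 22458 genes had a smaller value. All 27 were among the 11229 genes at or above the median level, where spread is lower in general, and within those genes PRKAR1A lay at the 0.249 percentile. Limma's moderation pulls so small a spread towards that of other genes, so its standard error of 0.068 and its interval are wider than its own arrays would give. The next steadiest member was PRKAR1B with a pooled SD of 0.0671, and the least steady was ADCY7 with 0.229.

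**Figure D2:**
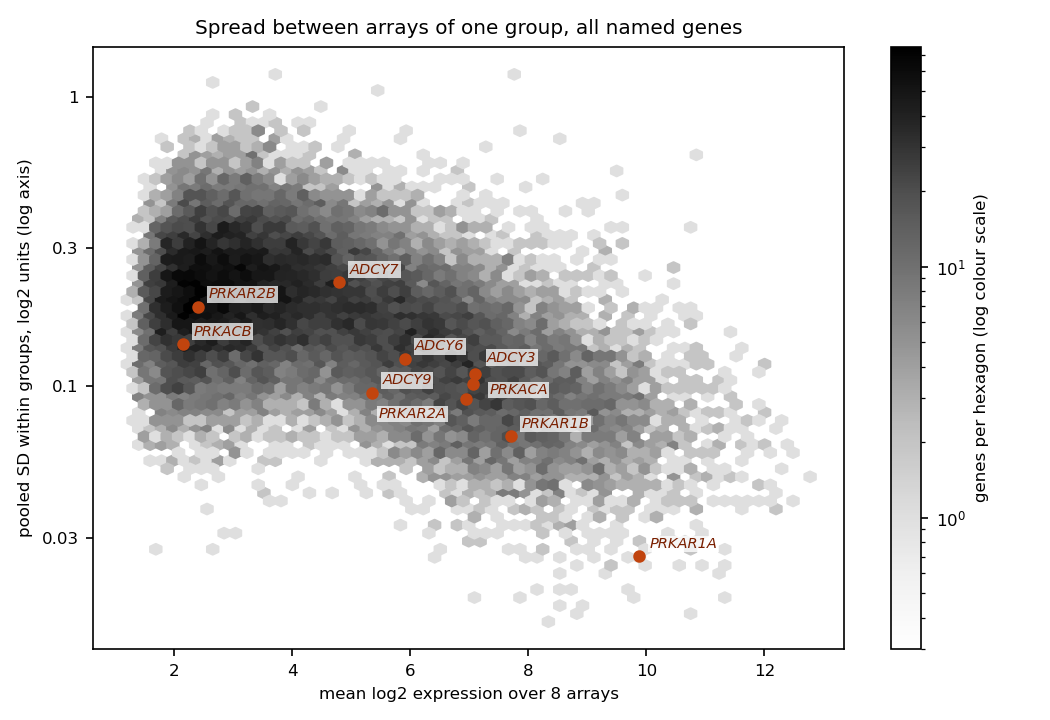
Pooled SD within the 2 groups (vertical, log axis) against mean log2 expression over 8 arrays (horizontal) for 22458 named genes, shown as hexagons shaded by gene number, with the 10 genes as red points. Spread is lower in general among genes at or above the median level, PRKAR1A lies near the lower edge at 0.0258, and ADCY7 is the highest of the 10 at 0.229.

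PRKAR1B encodes RI-beta, a type I subunit best known from the nervous system. Its values were 7.59, 7.71, 7.72 and 7.73 with CRTC1, against 7.75, 7.80, 7.76 and 7.63 with empty vector. CRTC1 replicate 1 was below every control array, and the other CRTC1 arrays lay within the range of the controls. The groups differed by -0.047 (log2, SE 0.076, adjusted p = 0.939), a ratio of 0.968 with an interval of 0.859 to 1.09.

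PRKAR2A encodes RII-alpha, the widespread type II subunit that A-kinase anchoring proteins tether to membranes and organelles. It had 6.79, 6.98, 6.89 and 6.94 with CRTC1, against 6.94, 7.14, 6.92 and 6.96 with empty vector. The groups overlapped, although each CRTC1 array lay below the control array of the same number, with differences of -0.15, -0.16, -0.032 and -0.014 on the log2 scale. The labels do not say what arrays of the same number share. The means were 6.90 ± 0.0798 on CRTC1 arrays and 6.99 ± 0.0994 on control arrays (SD, n = 4 each), and the log2 change of -0.088 had a standard error of 0.084 (adjusted p = 0.888, exact permutation p = 0.286). Without empty vector replicate 2, its highest array, the change was -0.039.

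PRKAR2B encodes RII-beta, known mainly from brain, fat and endocrine tissue. Its values were 2.82, 2.46, 2.45 and 2.19 with CRTC1, against 2.40, 2.30, 2.38 and 2.26 with empty vector. Of the CRTC1 arrays, 3 lay above every control array and replicate 4 lay below every control array. The log2 change of 0.14 was the highest of the 10 genes, with a standard error of 0.13 (adjusted p = 0.882, exact permutation p = 0.400). Leaving out CRTC1 replicate 1 gave 0.032, and leaving out CRTC1 replicate 4 gave 0.24. With a signal at the 16.1 percentile of all genes, PRKAR2B like PRKACB had no call to separate it from background.

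Catalytic and regulatory signals were also set against each other within each array, as the mean log2 value of the 2 catalytic genes minus that of the 4 regulatory genes. It was -1.98, -2.06, -2.22 and -2.15 with CRTC1, against -2.15, -2.28, -2.11 and -2.12 with empty vector. The groups overlapped and their means differed by 0.064, less than the SD of either group. This difference rests in part on the dim probe sets of PRKACB and PRKAR2B, so it describes probe signals and does not show whether the balance of transcripts changed.

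Adenylyl cyclases had the lowest median change of the 3 classes, -0.086 on the log2 scale, with 3 of 4 lower with CRTC1 and none past the test. ADCY3, a calmodulin-stimulated cyclase best known for olfactory signalling but present in many tissues, had 6.95, 7.03, 7.17 and 6.93 with CRTC1, against 7.05, 7.08, 7.26 and 7.25 with empty vector. Of the CRTC1 arrays, 3 lay below every control array, and replicate 3 lay among the controls. Each CRTC1 array was below its control of the same number, with differences of -0.10, -0.045, -0.081 and -0.31 on the log2 scale. Of the whole set, only ADCY3 and PRKAR2A had all such differences in the same direction. The share of all genes with this pattern is not given here, so it is a description and carries no test. What same-numbered arrays share is not stated. The means were 7.02 ± 0.110 on CRTC1 arrays and 7.16 ± 0.110 on control arrays (SD, n = 4 each). This was a log2 change of -0.14 (SE 0.091, adjusted p = 0.865, exact permutation p = 0.114), a ratio of 0.911 with an interval of 0.790 to 1.05.

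ADCY6 is inhibited by calcium and by PKA itself, and is a source of the cyclic AMP that opens the chloride channel CFTR in gut epithelium. Its values were 5.97, 5.74, 5.90 and 5.94 with CRTC1, against 6.03, 5.92, 6.02 and 5.72 with empty vector. The lowest array of each group, CRTC1 replicate 2 and empty vector replicate 4, lay close together. Its log2 change of -0.037 (SE 0.097, adjusted p = 0.967) became 0.012 without CRTC1 replicate 2.

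ADCY7 is a cyclase enhanced by G protein beta-gamma subunits and known best from blood cells. It had 4.92, 4.48, 4.71 and 4.64 with CRTC1, against 4.66, 4.74, 4.97 and 5.26 with empty vector. CRTC1 replicates 2 and 4 lay below every control array, empty vector replicates 3 and 4 lay above every CRTC1 array, and the remaining arrays mixed. The means were 4.69 ± 0.182 on CRTC1 arrays and 4.91 ± 0.268 on control arrays (SD, n = 4 each). The log2 change of -0.22, with a standard error of 0.15, was the largest of the 10 and had the smallest p, yet ranked 4297th of 22458 genes by p (adjusted p = 0.864, exact permutation p = 0.200). It was -0.38 without both arrays numbered 1, the 1 alternative in which any of the 10 genes reached an unadjusted p under 0.05, and -0.086 without both arrays numbered 4. The ratio of 0.859 had an interval of 0.684 to 1.08, the widest of the set.

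ADCY9, a widely expressed cyclase that responds weakly to forskolin, had 5.44, 5.33, 5.32 and 5.38 with CRTC1, against 5.51, 5.30, 5.31 and 5.22 with empty vector. All CRTC1 arrays lay within the range of the controls. A log2 change of 0.030 (SE 0.086, adjusted p = 0.968) became -0.0080 without empty vector replicate 4.

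**Figure D3:**
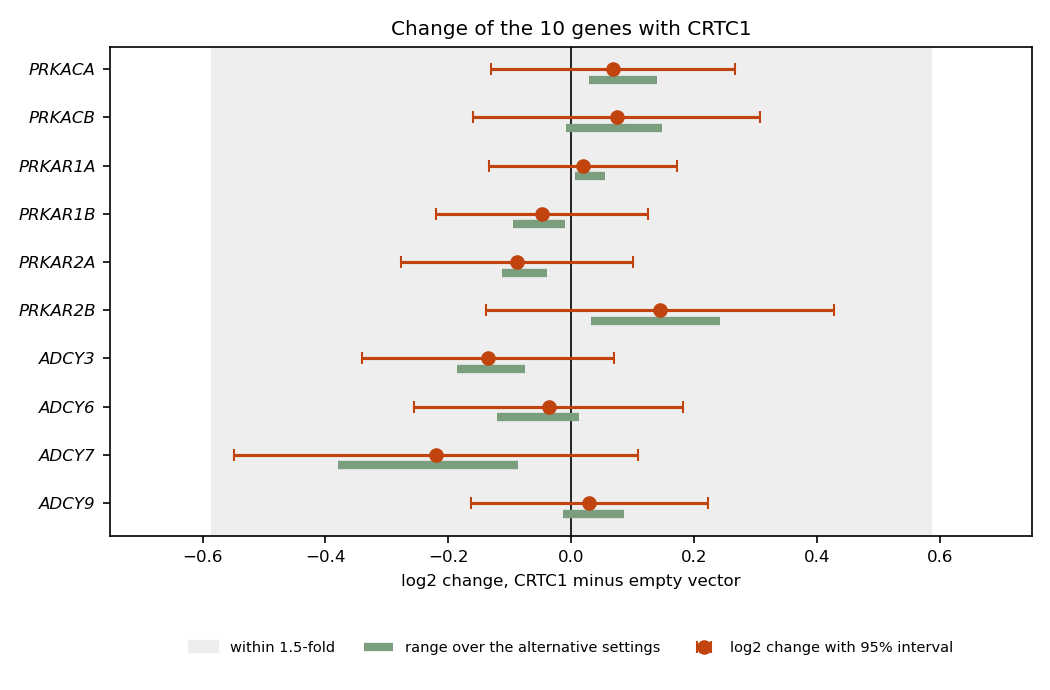
Log2 change, CRTC1 minus empty vector (horizontal), for each of the 10 genes, with red points and bars for limma's estimate and 95% interval, green bars for the range of the estimate over the alternative settings, and grey shading for changes within 1.5-fold. Every interval crosses 0 and stays inside the shading, and ADCY7 reaches lowest, to -0.55.

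Deviations of the members from their group means were also compared between arrays. CRTC1 replicate 1 had the highest CRTC1 signal. It was the highest or lowest of the 4 CRTC1 arrays in 8 of 10 genes, against 55.6% of all genes. CRTC1 replicates 2, 3 and 4 were so in 4 of 10 genes each, against 46.4%, 47% and 50.9% of all genes. Among the 45 pairs of members, deviations from the group means over the 8 arrays were most alike for PRKACB and PRKAR2B (Pearson r = 0.80) and most opposed for PRKACB and PRKAR1B (r = -0.87). Both dim genes of the first pair were highest on CRTC1 replicate 1. These correlations over 8 arrays describe this set of libraries and carry no test. The named genes with the profile most like that of ADCY7 were OSR1 (r = 0.96), SGF29 (r = 0.95) and CPSF4L (r = 0.94). The search covered the same 8 arrays and 10751 genes at or above the median level. Unnamed loci, long intergenic noncoding RNAs and small RNAs were left out. As the highest of 10751 correlations over 8 arrays, they carry no test and do not show a link with ADCY7.

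The same comparison was read for the genes around PKA, in 6 lists that together had 68 genes analysed. None passed the adjusted threshold in limma, and 1 reached an unadjusted p under 0.05 (the share over all genes was the 5.94% given above). The other 6 adenylyl cyclases had a median log2 change of 0.065, with 4 higher and 2 lower. ADCY8 and ADCY2, cyclases known best from brain, had changes of 0.14 (adjusted p = 0.877) and 0.14 (adjusted p = 0.906), and ADCY10, the soluble cyclase activated by bicarbonate, had 0.079. Only 1 of these 6, ADCY1, had a signal at or above the median of all genes, whereas all 4 cyclases followed above did. Of the PKA inhibitors and related kinases 4 were analysed, 1 higher and 3 lower, with a median of -0.046, and only 1 of the 4 had a signal at or above the median of all genes. The inhibitor peptide gene PKIA had -0.10, the catalytic gamma gene PRKACG -0.065 and the inhibitor gene PKIG 0.039, and the adjusted p of each was at least 0.915. PKIA and PRKACG had signals at the 20.7 and 15.8 percentiles of all genes, with no call to separate them from background.

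A-kinase anchoring proteins hold PKA at defined sites, and of 17 genes 8 were higher and 9 lower, with a median of -0.055. AKAP9, a scaffold at the centrosome and Golgi, averaged 6.39 ± 0.0243 on CRTC1 arrays and 6.23 ± 0.135 on control arrays (SD, n = 4 each), a log2 change of 0.16 (adjusted p = 0.852). SPHKAP, which binds type I PKA, had -0.19 (adjusted p = 0.863) and the mitochondrial anchor AKAP1 -0.16 (adjusted p = 0.864). The signal of SPHKAP lay at the 14.9 percentile of all genes, with no call to separate it from background. Of the 7 G protein alpha subunits, 5 were higher and 2 lower, with a median of 0.12. GNAO1 had 0.20 (adjusted p = 0.864), GNAL, a stimulatory subunit known from olfactory neurons, 0.13 (adjusted p = 0.873), and the inhibitory subunit GNAI2 -0.13 (adjusted p = 0.878). Of the other cyclic AMP effectors, 6 were higher and 3 lower, with a median of 0.046, and only 2 of the 9 had a signal at or above the median of all genes. The Popeye domain gene POPDC3 had -0.19, its relative POPDC2 0.22 and the cyclic nucleotide-gated channel gene CNGA3 0.28, none of which passed. Their signals lay at the 7.04, 17 and 29.6 percentiles of all genes, again with no call to separate them from background.

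Among 25 receptors that couple to the stimulatory G protein, 16 were higher and 9 lower, with a median of 0.032. Only 5 of the 25 had a signal at or above the median of all genes. PTGER4, which encodes the prostaglandin receptor EP4, was the 1 gene of the 6 lists at an unadjusted p under 0.05. Its values were 2.48, 2.52, 2.88 and 2.76 with CRTC1, against 2.29, 1.97, 2.21 and 2.28 with empty vector. The lowest CRTC1 array exceeded the highest control, with a log2 change of 0.47 with a standard error of 0.12, which did not pass over all genes (adjusted p = 0.837, exact permutation p = 0.0286, the smallest that 4 against 4 arrays allow). The PTGER4 signal lay at the 16.6 percentile of all genes, with no call to separate it from background. The adenosine receptor gene ADORA2A had -0.34 (adjusted p = 0.838) and reached an unadjusted p under 0.05 in 7 of 19 alternatives, the replicate block among them, while passing the adjusted threshold in none. The bile acid receptor gene GPBAR1 had 0.29 (adjusted p = 0.864).

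**Figure D4:**
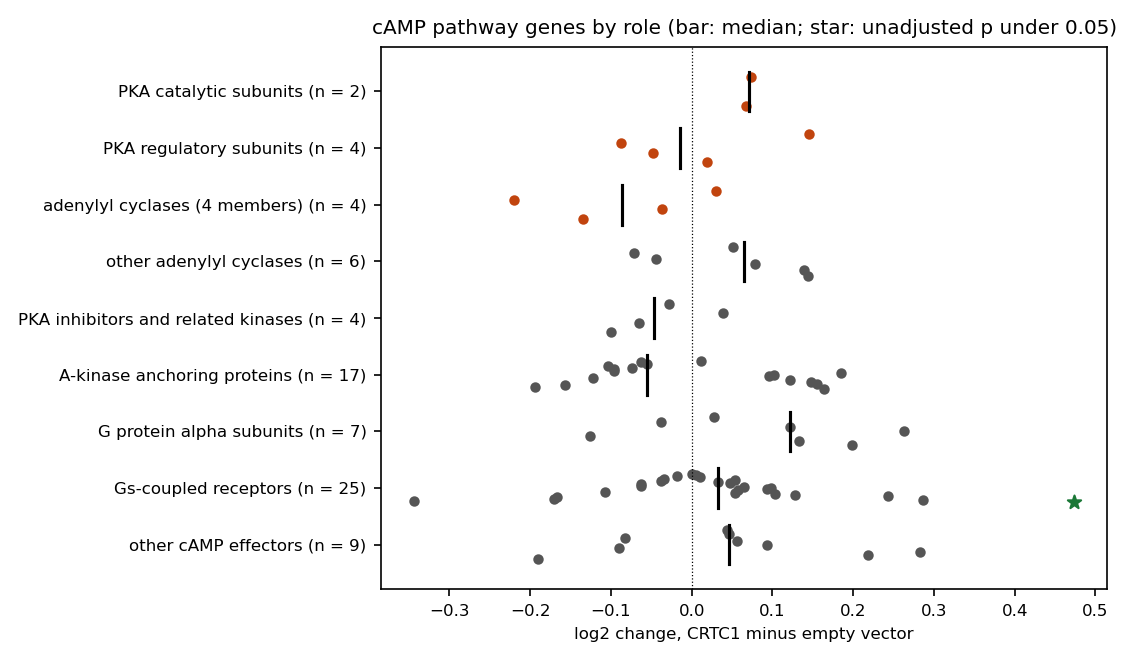
Log2 change, CRTC1 minus empty vector (horizontal), of the 10 genes in their 3 classes (red) and of 68 cyclic AMP pathway genes in 6 lists (grey), with a bar at each median and a star at an unadjusted p under 0.05. PTGER4, at 0.47, carries the single star, and the medians of the 9 rows lie between -0.086 and 0.12.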

How the data were processed

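Total RNA of 8 samples was labelled by the Affymetrix whole-transcript sense target protocol, per the labels' protocols. The deposited values are log2 expression, 1 per probe set and array. The submitters' processing notes name Partek without a version, and how the background was corrected and the arrays normalized was not given in the sources used here. Of 23786 probe sets, 22458 had 1 gene symbol in the platform annotation (possibly outdated), and 1328 had none. All 22458 matched RefSeq's table for GRCh38.p14 by Entrez ID. Groups and replicate numbers came from the titles.

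Limma 3.58.1 (R 4.3.3) was fitted to the log2 values, with 1 coefficient per group, all 8 arrays and Benjamini-Hochberg adjustment over 22458 genes (threshold 0.05). Single genes also had exact two-sided permutation tests. The script was tested on simulated data. The 4 arrays per group limit the precision. How the values were scaled between arrays is not given, and array medians ran only from 4.11 to 4.15. If the arrays were scaled to match, a change common to most transcripts would go unseen.

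The members and lists were chosen with earlier results of these data known. Named were CRTC1, the 10 members, the 3 genes of smallest p per pathway list, and the 3 genes most like the member of smallest p. Of the listed genes, 6 were not analysed here. BVES was found as POPDC1. Alternatives were quantile normalization, median centring, a level filter, a variance trend, array weights, all probe sets, a replicate block, and leaving out arrays or replicate numbers, 19 in all.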

Additional observations from a re-analysis of the deposited data

Results flagged for a closer look

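Dixon's test was run on 58 gene and group combinations of 4 arrays and marked an outlying array in 2, where chance gives about 3. Both were members. PRKAR1B lay at 7.592 on CRTC1 replicate 1, below 7.709 to 7.728 on the other CRTC1 arrays. PRKAR2A lay at 7.138 on empty vector replicate 2, above 6.924 to 6.959 on the other control arrays.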

How the results depend on the processing

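Over the 19 alternatives 0 of the 10 members passed the adjusted threshold, and the CRTC1 log2 change stayed past it, between 5.61 and 6.20. Genes past the threshold numbered 2 with a variance trend and robust moderation. With the filter at the median level, where fewer genes were tested, 829 genes reached an unadjusted p under 0.05, 3 of the 8 members tested were higher, as were 14 pathway list genes. With the replicate block no named gene gained or lost the adjusted threshold, while ADORA2A and SPHKAP newly reached an unadjusted p under 0.05. Same-numbered arrays correlated in their deviations at 0.25, 0.038, 0.064 and 0.12. The highest correlations with other numbers were lower each time, at -0.043, 0.0067, 0.024 and 0.013. Whether the numbers mark pairs was not tested. The main fit treats the arrays as unpaired, so its p-values would not reflect any pairing. With the replicate block 1677 genes reached an unadjusted p under 0.05 against 1333 without it, and CRTC1 had an adjusted p of 0.0303. Pathway list genes at that p numbered 2 with quantile normalization or the variance trend, 3 with the replicate block and 1 to 3 with arrays left out. Members at that p numbered 0 to 1 with arrays left out. Of 188 member values, 182 kept their direction. The signs that turned came with arrays left out, where PRKACB ran from -0.0093 to 0.15, ADCY6 from -0.12 to 0.012, ADCY9 from -0.014 to 0.087, ADCY8 from -0.0011 to 0.21, ADCY2 from -0.039 to 0.24, PRKACG from -0.17 to 0.073 and PKIG from -0.099 to 0.17. The causes were not tested. Dim genes such as PRKACB and PRKAR2B could not be separated from background.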
